A study of Homo sapiens with 9 samples.

Results

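Gene expression in the SH3 group of Caki-1 cells was compared with control across the genes of the deposited table. Caki-1 is an established human line of clear cell renal carcinoma, and total RNA of 9 libraries was sequenced. The comparison uses 6 of the 9 libraries, 3 labelled SH3 with the genotype TAF1D knockdown and 3 controls with the genotype WT, all taken by their labels. The remaining 3, labelled SH1, are also TAF1D knockdown and are used below to ask where the groups differ. Per the series' design text the knockdown was made with short hairpin RNA. What the names SH1 and SH3 mean, what the controls received and whether a line is 1 clone are not in the labels. The labels do not say whether libraries of a group come from separate cultures, so the p-values measure only the spread between these samples, which may be technical.

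The TAF1D protein is part of SL1, a complex that recruits RNA polymerase I to ribosomal DNA. RNA polymerase I transcription sets the supply of ribosomes and is tuned to growth factor and PI3K, AKT and mTOR signalling. Cells short of amino acids or under translational stress raise the transcription factor ATF4, which drives amino acid synthesis genes. NF-kB drives cytokine and chemokine genes, which many carcinoma lines express on their own.

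The deposited table is a selection. It lists 20909 transcripts of 6819 genes, and on the deposited normalized read count 99.43% of these are 2-fold or more apart when control 1 is set against SH1 1, beside 51.14% to 64.58% for the other pairs of libraries. Estimated counts of the listed transcripts were summed per gene, so a sum covers the listed transcripts and not always the whole gene. TAF1D is among the genes not analysed here, and no check of the knockdown on its target was made. The listed counts added up to 1358215 to 1412867 in the controls and to 1450201 to 1466297 in SH3, which is 4.202% to 4.826% of all TPM (a length-scaled share of each library) in these 6 libraries and not their depth. On log values of the gene sums, the SH3 libraries correlated with each other at 0.6899 to 0.702 and with the controls at 0.6334 to 0.6728, a description across genes, which are not independent replicates. Levels below are summed FPKM (fragments scaled to transcript length and library size) in each library, in the order 1, 2, 3, and changes are log2 fold changes ± SE with n = 3 libraries in each group.

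In SH3 against control, the amino acid synthesis genes ASNS and PSPH, the secreted immune signals CSF3 and CXCL1, and the growth signalling genes EREG and MET were among those that rose. The secreted matrix and protease genes CPA4, ADAMTS1 and VCAN were among those that fell. Of 6398 genes tested with the edgeR quasi-likelihood test, 26 passed an adjusted p of 0.05 (Benjamini-Hochberg over all genes tested), which is 0.406% of the genes. Of these, 19 were higher in SH3 (0.297%) and 7 were lower (0.109%). At an unadjusted p under 0.05 there were 537 genes (8.39%), 272 higher (4.25%) and 265 lower (4.14%). The DESeq2 test of the same sums called 257 genes (4.08%), and a fit of the 2 groups alone called 8 (0.135%). In all 26 the SH3 libraries did not overlap the controls, which held for 1108 genes tested (17.3%), 558 of them higher and 550 lower in SH3. Without control 1, on which the table was selected, 15 genes of 6501 passed (0.231%), 10 higher (0.154%) and 5 lower (0.0769%), of which 13 were among the 26. In bulk RNA, fewer cells that express a gene and less RNA per cell cannot be told apart.

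**Figure D1:**
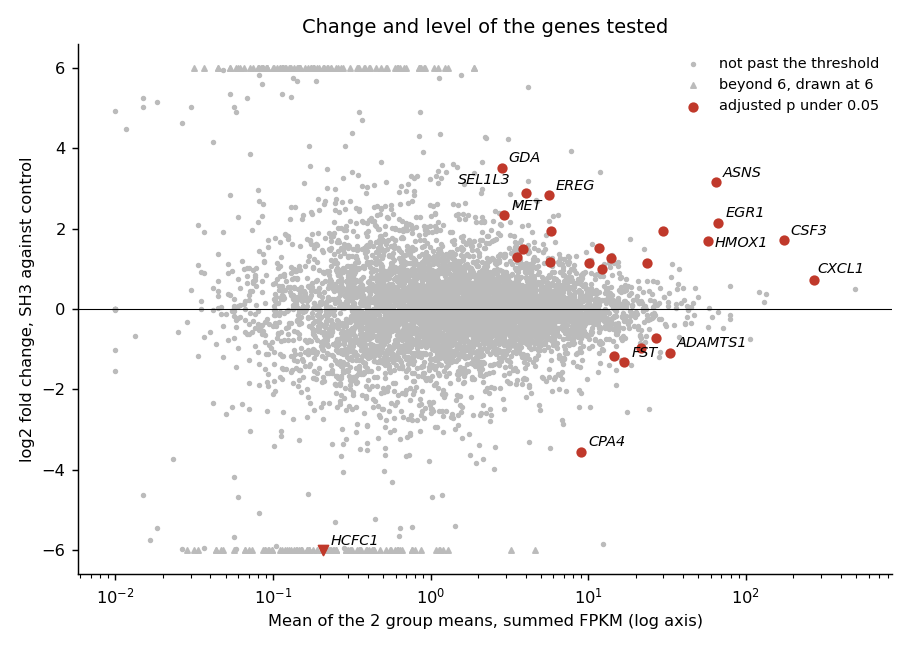
Each point is 1 of 6398 genes, with the mean of the control and SH3 levels as summed FPKM (horizontal, log axis) and the log2 fold change of SH3 against control (vertical). Red marks the 26 genes past an adjusted p of 0.05, and values beyond 6 are drawn at 6. Low genes spread widely on both sides of 0, and 16 of the red points lie at a mean of at least 10 FPKM.

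The change with the smallest p was in ASNS, which encodes asparagine synthetase, the enzyme that makes asparagine from aspartate. Its level was 12.7, 11.4 and 10.8 FPKM in the controls and 116, 124 and 111 in SH3. The lowest SH3 library thus lay far above the highest control, and the mean rose 10.1-fold (log2 fold change 3.16 ± 0.14, adjusted p = 0.000105). All 5 listed transcripts of ASNS had a positive log2 fold change, from 1.85 ± 0.62 (NM_001352496) to 4.78 ± 2.37 (NM_183356), although none passed as a single transcript (adjusted p 0.106 to 0.822). Their shares differed: NM_001178077 and NM_001673 made up 43.2% and 36.2% of the sum in SH3, and 28.9% and 23.6% in the controls. The groups were labelled by the submitters as the same knockdown, but in SH1 the level of ASNS was 5.41, 6.14 and 4.51 FPKM, below all controls (-1.26 ± 0.13 against the same controls, adjusted p = 0.00282). The difference between SH3 and SH1 was 4.42 ± 0.15 on the log2 scale (adjusted p = 1.16e-05). The table was selected on control 1 and SH1 1, so p-values of tests with SH1 are not those of an unselected table.

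PSPH, which encodes the phosphatase of the last step of serine synthesis, also rose. It stood at 16.1, 12.3 and 14.4 FPKM in the controls and at 32.3, 33.5 and 32.9 in SH3 (1.14 ± 0.13, adjusted p = 0.0151, range over its alternatives 5.81e-19 to 0.0891). Every SH3 library was above every control, and the SH3 libraries lay close together. In SH1 it was 11.5, 9.71 and 11.2 FPKM (-0.52 ± 0.13, adjusted p = 0.12), and the difference between SH3 and SH1 passed (1.66 ± 0.14, adjusted p = 0.00118). The limit set by the selection holds for both of these tests with SH1.

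ASNS and PSPH were the members called in a list of 50 ATF4 targets, of which 24 were tested. Both of the 2 called members rose and 0 fell, 8.33% called higher beside 0.297% of all genes tested. This list and those below were chosen with earlier results of these data known. Their shares are thus descriptions, and the share over all genes is not matched for level. The log2 fold change was positive in 18 and negative in 6, with a median of 0.68 beside -0.03 over all genes tested. In 7 of the 24 the SH3 libraries lay above all controls (29.2%, beside 8.72% of all genes). Among members that missed the threshold, CEBPG, a partner of ATF4, was at 0.46, 0.56 and 0.32 FPKM in the controls and 1.4, 2.29 and 1.85 in SH3 (1.96 ± 0.48, adjusted p = 0.212). The glycine transporter gene SLC6A9 was at 1.09, 1.68 and 0.61 and then 4.3, 4.6 and 6.89 FPKM (2.16 ± 0.53, adjusted p = 0.216). DDIT3, the stress factor CHOP, was at 7.22, 5.92 and 11.1 in the controls and at 22.9, 22.4 and 11.3 in SH3, with the third SH3 library level with the third control (1.14 ± 0.39, adjusted p = 0.441). Not all members rose. Among the 6 negative ones were CBS (-0.94 ± 0.78), SLC7A5 (-0.30 ± 0.71) and PYCR1 (-0.23 ± 0.40). PSAT1 (0.23 ± 1.54) and TRIB3 (0.28 ± 1.15) changed by less than their SE.

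**Figure D2:**
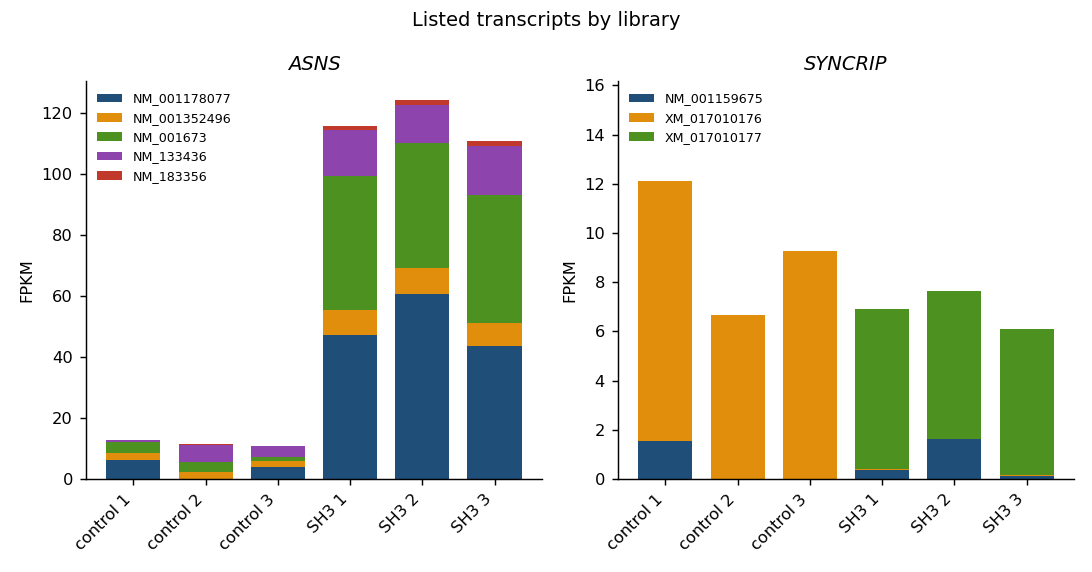
Bars stack the FPKM of each listed transcript of ASNS (left) and SYNCRIP (right) in the 3 control and 3 SH3 libraries. The ASNS total lies between 10.8 and 12.7 in the controls and between 111 and 124 in SH3, and in SYNCRIP XM_017010176 fills the control bars and XM_017010177 the SH3 bars.

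The promoter of ASNS is shown because ATF4 is known to act on this gene. It is taken from RefSeq (build GRCh38.p14, chr7:97872359-97872658, minus strand), from 250 bases before to 50 after the gene's start, 5′ to 3′ on the gene's strand. Capitals mark the match to the ATF4 motif TGATGNAA, searched on both strands, at 68 to 61 bases before the start.
ASNS: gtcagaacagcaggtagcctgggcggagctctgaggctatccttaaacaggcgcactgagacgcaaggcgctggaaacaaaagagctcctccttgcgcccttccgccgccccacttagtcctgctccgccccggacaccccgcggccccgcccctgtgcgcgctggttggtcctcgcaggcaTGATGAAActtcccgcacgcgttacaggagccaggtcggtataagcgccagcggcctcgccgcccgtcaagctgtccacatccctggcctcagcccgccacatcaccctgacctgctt
This motif was in 1270 of 35116 promoters of the same length (3.62%). RefSeq promoters were found for 21 of the 26 called genes. Here and for the motifs below, each called gene was searched in 1 promoter, the first listed for it. The share over all promoters counts every promoter, so the units differ. The motif was in 1 of the 16 with higher expression, ASNS, and in 0 of the 5 with lower expression. A match is a description of these letters and not a site shown to be bound.

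The secreted immune signals CSF3 and CXCL1 rose with high levels. CSF3, which encodes the granulocyte growth factor G-CSF, was at 84.8, 74.1 and 74.1 FPKM in the controls and at 267, 287 and 253 in SH3. It rose 3.46-fold (1.71 ± 0.10, adjusted p = 0.000288), and every SH3 library was above every control. Its transcript NM_172219 carried 87.4% of the sum in the controls and 90.3% in SH3 and passed on its own (1.80 ± 0.13, adjusted p = 0.00306). CXCL1, which encodes a chemokine that attracts neutrophils, was already at 204, 207 and 183 FPKM in the controls and reached 358, 343 and 332 in SH3. This was a small rise at a high level, 1.74-fold (0.72 ± 0.10, adjusted p = 0.0253). Without control 1 the change of CXCL1 was as large and missed the threshold (0.70 ± 0.11, adjusted p = 0.084, with a range of 1.69e-13 to 0.139 over its alternatives). CXCL1 has close relatives in sequence, CXCL2 and CXCL3, and the counting step is not described, so some reads may have been split among them.

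CSF3 and CXCL1 belong to a list of 39 NF-kB and inflammatory genes, of which 21 were tested. In it 2 members rose and 0 fell (9.52% called higher, beside 0.297% of all genes). The median log2 fold change was 0.72, beside -0.03 over all genes, with 14 positive and 7 negative. The SH3 libraries lay above all controls in 10 of the 21 (47.6%, beside 8.72%) and below all controls in 1 (4.76%, beside 8.6%). The summed level of the list was 359 to 397 FPKM in the controls and 731 to 803 in SH3, of which CSF3 and CXCL1 made up 257 to 289 and 585 to 630. LIF, a cytokine of the interleukin 6 family, was at 12.7, 4.78 and 7.34 in the controls and 29, 36.2 and 20.8 in SH3 (1.74 ± 0.38, adjusted p = 0.157). The chemokine gene CXCL5 was at 2.92, 1.33 and 1.61 and then 6.44, 5.54 and 4.73 FPKM (1.45 ± 0.33, adjusted p = 0.178). IL6, the interleukin 6 gene, was at 7.64, 2.74 and 4.62 and then 12.3, 19.2 and 11.8 FPKM (1.42 ± 0.32, adjusted p = 0.178). In LIF, CXCL5 and IL6 no SH3 library overlapped a control, the highest control was control 1, and the threshold was missed. Other members, named after their values were seen, were flat or went the other way. CXCL6 fell from 8.55, 4.41 and 5.52 to 4.32, 3.82 and 3.85 FPKM (-0.69 ± 0.27, adjusted p = 0.533). C3 was at -0.34 ± 0.20, NFKB1 at -0.75 ± 1.40, NFKB2 at -0.18 ± 0.44 and RELA at 0.13 ± 0.34. CXCL8 overlapped between the groups (0.85 ± 0.46, adjusted p = 0.688).

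The CXCL1 promoter (RefSeq, GRCh38.p14, chr4:73869143-73869442, plus strand, the same window) is shown as that of the gene of the highest level among the 26. Capitals mark the matches to the NF-kB motif (3 G, any 5 bases, then 2 C) on either strand, with overlapping matches joined.
CXCL1: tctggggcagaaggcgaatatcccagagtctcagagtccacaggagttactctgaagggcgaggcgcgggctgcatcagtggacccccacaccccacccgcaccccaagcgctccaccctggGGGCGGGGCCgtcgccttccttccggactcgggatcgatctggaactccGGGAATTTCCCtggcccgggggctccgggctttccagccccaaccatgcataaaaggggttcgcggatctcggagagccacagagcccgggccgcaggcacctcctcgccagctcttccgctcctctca
This motif is common, in 20602 of 35116 promoters (58.7%). It was in 13 of the 16 promoters of genes with higher expression and in 4 of the 5 of genes with lower expression.

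The transcription factor genes EGR1 and HES1 rose. EGR1, an immediate early transcription factor, was at 22.1, 20.4 and 27.8 FPKM in the controls and at 108, 94 and 128 in SH3, with no overlap (2.15 ± 0.22, adjusted p = 0.00824). HES1, a transcriptional repressor downstream of Notch, was at 12.4, 9.02 and 13.9 and then 45, 51.2 and 47.2 FPKM (1.95 ± 0.28, adjusted p = 0.0375). EGR1 was the 1 member called among 16 tested of 43 immediate early genes (6.25% called higher, beside 0.297% of all genes, and 0 lower). The median log2 fold change of the list was 0.48, beside -0.03 over all genes, with 10 positive and 6 negative. EGR2, a relative of EGR1, was listed at 0 in all controls and at 0.55, 0.14 and 0.38 FPKM in SH3 (adjusted p = 0.436). The call of HES1 was lost without control 1 (1.94 ± 0.35, adjusted p = 0.107, range over its alternatives 8.23e-08 to 0.149).

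The promoter of EGR1 (RefSeq, GRCh38.p14, chr5:138465229-138465528, plus strand) is shown for its CArG boxes, the elements known to bind serum response factor. Capitals mark the matches, at 105 to 96 and at 83 to 74 bases before the start.
EGR1: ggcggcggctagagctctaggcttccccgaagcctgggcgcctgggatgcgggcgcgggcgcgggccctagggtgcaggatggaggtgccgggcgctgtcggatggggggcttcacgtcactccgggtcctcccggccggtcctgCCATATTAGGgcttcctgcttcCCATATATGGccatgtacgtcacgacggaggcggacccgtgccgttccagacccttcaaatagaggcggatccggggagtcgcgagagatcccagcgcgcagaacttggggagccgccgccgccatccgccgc
A CArG box was in 454 of 35116 promoters (1.29%). Among the called genes it was in 2 of the 16 promoters of genes with higher expression, EGR1 and KCNK3, and in 0 of the 5 of genes with lower expression.

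Among ligands and receptors of growth signalling, the calls went both ways. EREG encodes epiregulin, a ligand of the EGF receptor. It was at 1.65, 1.08 and 1.23 FPKM in the controls and 10.8, 9.77 and 9.03 in SH3, a 7.48-fold rise with no overlap (2.84 ± 0.23, adjusted p = 0.00211). MET, the receptor of hepatocyte growth factor, was at 1.12, 0.84 and 1.15 and then 4.23, 4.25 and 5.95 FPKM (2.34 ± 0.29, adjusted p = 0.019). In MET the transcript NM_001324402 made up 65.3% of the listed sum in the controls and 95.5% in SH3.

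The adaptor gene GRB10, whose protein binds the insulin receptor and is a target of mTOR, was at 1.83, 1.88 and 3.04 FPKM in the controls and 8.81, 10.2 and 8.84 in SH3 (1.95 ± 0.24, adjusted p = 0.0193). Its sum is spread over 11 listed transcripts, of which none passed alone. IGFBP3, which encodes a secreted binder of insulin-like growth factors, fell from 30.1, 25 and 28.9 to 14.8, 15.2 and 15.3 FPKM (-0.97 ± 0.13, adjusted p = 0.0323). FST, which encodes follistatin, a secreted binder of activin, fell from 27.9, 21.2 and 22.5 to 10, 11.2 and 8.68 FPKM (-1.33 ± 0.20, adjusted p = 0.0438). No SH3 library of these 3 genes overlapped a control.

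In the list of 56 growth factors and receptors, 29 were tested, 2 rose (EREG, MET) and 2 fell (FST, IGFBP3), 6.9% in each direction, beside 0.297% of all genes higher and 0.109% lower. The median was 0.05, beside -0.03 over all genes. VEGFA, the vascular endothelial growth factor, was at 5.63, 6.88 and 6.8 FPKM in the controls and 12.4, 12.3 and 12.1 in SH3 and missed the threshold (0.87 ± 0.22, adjusted p = 0.236). Without control 1 the adjusted p was 0.0836 for MET, 0.0517 for GRB10, 0.0873 for IGFBP3 and 0.107 for FST. Over all alternatives it ranged from 2.9e-12 to 0.105 for MET, 6.92e-12 to 0.648 for GRB10, 5.49e-15 to 0.179 for IGFBP3 and 2.18e-07 to 0.223 for FST.

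HMOX1 encodes heme oxygenase 1, which breaks down heme and is induced by NRF2 and by oxidative stress. It was at 21.2, 27.4 and 28.6 FPKM in the controls and 86, 91.8 and 87.5 in SH3, 3 SH3 libraries close together and all above the controls (1.69 ± 0.18, adjusted p = 0.00983). It was the 1 member called among 16 tested of a list of NRF2 targets and heme and iron genes (6.25%, beside 0.297% of all genes), whose median was 0.03, beside -0.03 over all genes. In the same list AKR1B1, an aldo-keto reductase gene, was at 1.2, 2.56 and 0.46 FPKM and then 4.38, 6.68 and 5.11 (1.83 ± 0.63, adjusted p = 0.455). BACH1, a repressor of HMOX1, was at 3.2, 1.45 and 1.16 in the controls and 0.99, 0.97 and 1.08 in SH3 (adjusted p = 0.532).

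CDKN1A, which encodes the cell cycle inhibitor p21, rose from 6.12, 5.89 and 5.48 FPKM to 17.3, 16.7 and 18.6 (1.51 ± 0.18, adjusted p = 0.0155). All SH3 libraries lay well above the controls. Only 2 of its 10 curated RefSeq transcripts are listed. It was the 1 member called among 16 tested cell cycle inhibitors and p53 targets (6.25%, beside 0.297% of all genes), whose median was 0.13, beside -0.03 over all genes. Without control 1 it narrowly missed (1.50 ± 0.21, adjusted p = 0.0574, range over its alternatives 3.97e-14 to 0.0994).

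In 34 tested genes of mitosis and 21 of DNA replication, 0 and 0 were called by edgeR in either direction, with an unadjusted p under 0.05 in 1 higher and 3 lower for mitosis, and in 1 higher and 2 lower for replication. DESeq2 called 2 lower for mitosis (adjusted p = 0.00701 for SMC4 and 0.00109 for CDC25A). For replication DESeq2 called 1 higher (0.0485 for RFC1) and 1 lower (0.00287 for TOP2A). The median was 0.12 for mitosis (18 positive and 16 negative) and -0.48 for replication (5 positive and 16 negative). The condensin gene SMC4 was at 16.2, 13.1 and 11.1 FPKM in the controls and 8.43, 7.38 and 9.49 in SH3 (-0.75 ± 0.18, adjusted p = 0.195). CDC25A, a phosphatase that starts S phase, was at 11.7, 12.2 and 12.1 and then 8.74, 9.67 and 9.28 FPKM (-0.47 ± 0.13, adjusted p = 0.304). TOP2A, the topoisomerase of dividing cells, was at 0.37, 5.63 and 8.26 in the controls, so that control 1 stood with SH3 (0.3, 0.3 and 0.37 FPKM). With edgeR TOP2A missed the threshold (-3.98 ± 1.09, adjusted p = 0.289, or 0.084 without control 1). In the other direction RFC1, a subunit of the clamp loader, was at 0.32, 0 and 0.23 FPKM in the controls and 9.82, 3.06 and 11.5 in SH3 (5.53 ± 2.01, adjusted p = 0.492 with edgeR and 0.0485 with DESeq2). INCENP, of the chromosomal passenger complex, was listed at 0 in all controls and at 2.19, 0.71 and 0 FPKM in SH3 (adjusted p = 0.557).

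Matrix and protease genes held the largest fall among called genes above 0 in both groups. CPA4 encodes a secreted carboxypeptidase. It fell from 15.8, 17.1 and 16.6 FPKM in the controls to 1.57, 1.37 and 1.56 in SH3, an 11-fold drop with tight groups (-3.55 ± 0.19, adjusted p = 0.000219). ADAMTS1, a secreted metalloproteinase that cuts proteoglycans, fell from 45.1, 43.3 and 43 to 23.9, 20.1 and 21.3 FPKM (-1.09 ± 0.11, adjusted p = 0.00735). VCAN, which encodes versican, a matrix proteoglycan, fell from 21.3, 17.7 and 20.6 to 9.87, 7.99 and 10.2 FPKM (-1.17 ± 0.13, adjusted p = 0.0101). The 2 groups did not overlap in CPA4, ADAMTS1 or VCAN, and all 3 passed without control 1 (adjusted p of 0.0012, 0.0217 and 0.0405, with ranges over the alternatives of 6.17e-92 to 0.00642, 5.42e-30 to 0.0564 and 9.26e-17 to 0.0919).

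These were the 3 called of 29 tested members of a list of 57 matrix and protease genes, 10.3% lower beside 0.109% of all genes, and 0 were called higher. Over the list 12 log2 fold changes were positive and 17 negative, with a median of -0.07 beside -0.03 for all genes, or of 0.05 beside 0 without control 1. SH3 lay below all controls in 7 (24.1%, beside 8.6%) and above all controls in 3 (10.3%, beside 8.72%). COL8A1, a short-chain collagen gene, was at 19.9, 11.4 and 15.5 FPKM and then 7.42, 7.35 and 8.29 (-1.09 ± 0.18, adjusted p = 0.063). TGFBI, a matrix protein gene induced by TGF-beta, was at 8.8, 10.1 and 10 and then 4.21, 4.08 and 4.66 FPKM (-1.24 ± 0.21, adjusted p = 0.0736). TNC, which encodes the matrix glycoprotein tenascin C, was at 4.17, 5.42 and 3.55 FPKM in the controls and 10.4, 8.73 and 11.9 in SH3 (1.18 ± 0.21, adjusted p = 0.0862), and was named after its values were seen. COL8A1, TGFBI and TNC missed the threshold although no library overlapped, the first and second of them lower and TNC higher in SH3.

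The promoter of CPA4 (RefSeq, GRCh38.p14, chr7:130292911-130293210, plus strand) is shown as that of the called gene with the largest fall among those above 0 in SH3. Capitals mark the matches to the AP-1 motif TGANTCA on either strand, at 48 to 42 and at 15 to 9 bases before the start.
CPA4: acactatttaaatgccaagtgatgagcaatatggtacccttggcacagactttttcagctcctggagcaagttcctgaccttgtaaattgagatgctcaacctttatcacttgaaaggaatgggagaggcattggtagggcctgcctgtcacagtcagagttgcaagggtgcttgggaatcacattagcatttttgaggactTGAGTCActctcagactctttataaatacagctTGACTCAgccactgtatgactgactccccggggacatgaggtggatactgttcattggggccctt
The motif was in 2707 of 35116 promoters (7.71%). It was in 0 of the 16 promoters of called genes with higher expression and in 2 of the 5 with lower expression, CPA4 and FST. The second match in CPA4 overlaps a match to the NRF2 motif TGACNNNGC, which was in 13.3% of all promoters.

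**Figure D3:**
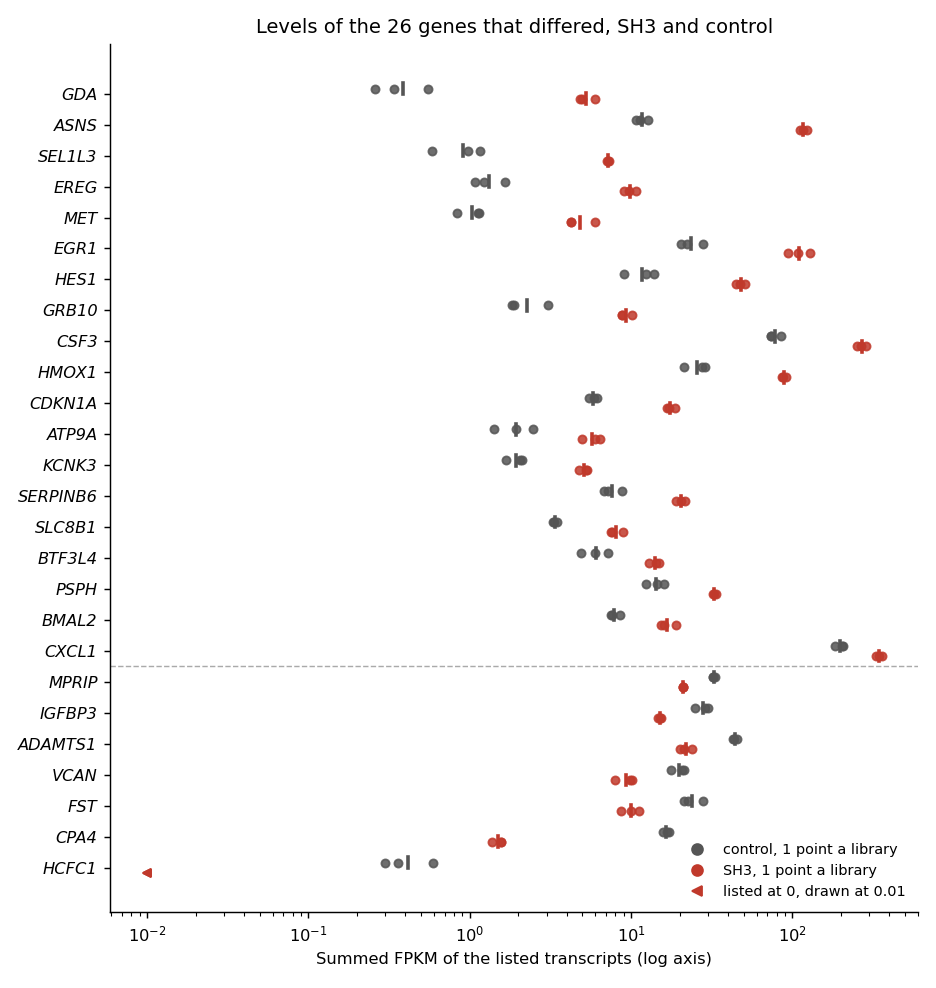
Points give the summed FPKM (log axis) of the 26 genes that differed, 1 point for each control (grey) and SH3 (red) library, with vertical ticks at the group means. Genes above the dashed line were higher in SH3 and those under it lower. Grey and red points are apart in every gene, and HCFC1 is listed at 0 in SH3.

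The other called genes fall outside these lists. GDA, which encodes guanine deaminase, an enzyme of purine breakdown, was at 0.55, 0.34 and 0.26 FPKM in the controls and 4.94, 5.97 and 4.83 in SH3 (3.52 ± 0.26, adjusted p = 0.00139), the largest rise among the 26. SEL1L3, a membrane protein gene related to SEL1L, was at 0.58, 0.98 and 1.16 and then 7.26, 7.09 and 7.25 FPKM (2.90 ± 0.30, adjusted p = 0.00824). Over its alternatives the adjusted p ranged from 1.96e-22 to 0.32 and the log2 fold change from 2.12 to 4.36. The predicted transcript XM_024453954 made up 89.3% of its sum in the controls and 73.2% in SH3. In GDA and SEL1L3 a gene that was low in every control stood above 4 FPKM in every SH3 library.

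BMAL2, a partner of CLOCK in the circadian system, rose from a mean of 7.88 to 16.7 FPKM (1.00 ± 0.14). BTF3L4, a relative of the translation-linked factor BTF3, rose from 6.05 to 14.1 FPKM (1.14 ± 0.16), and SERPINB6, an intracellular protease inhibitor, from 7.63 to 20.3 (1.27 ± 0.18). SLC8B1, the mitochondrial sodium and calcium exchanger, rose from 3.37 to 8.05 FPKM (1.18 ± 0.17). The potassium channel gene KCNK3 rose from 1.95 to 5.1 FPKM (1.30 ± 0.19) and the phospholipid flippase gene ATP9A from 1.94 to 5.77 (1.50 ± 0.22). MPRIP, which binds myosin phosphatase and RhoA, fell from 32.7 to 20.9 FPKM (-0.73 ± 0.09, adjusted p = 0.0193, range over its alternatives 1.5e-15 to 0.139, past the threshold without control 1). Adjusted p of the 6 that rose lay between 0.0323 (BMAL2) and 0.0399 (ATP9A), and all 6 lost their call without control 1 (0.0517 for BTF3L4 to 0.107 for ATP9A and KCNK3, with highest values over the alternatives from 0.153 for BTF3L4 to 0.395 for KCNK3).

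HCFC1, which encodes a cofactor of transcription in cell proliferation, had 66, 56 and 106 counts in the controls and 0 in all SH3 libraries. With 3 counts over the SH3 group as the floor, which covers counting error only, it was at least 81.7-fold lower in SH3 (adjusted p = 0.00983, range over its alternatives 1.07e-09 to 0.303). The sum is made of 2 predicted transcripts, with 0 of its 11 curated RefSeq transcripts listed, so the level of the gene as a whole was not measured here. The level of the listed transcripts was 0.36, 0.3 and 0.59 FPKM in the controls. In SH1 it was 1.56, 1.05 and 1.07.

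Just short of the threshold, at an adjusted p of 0.05 to 0.1, were 13 genes higher and 9 lower in SH3, TNC among the former. The genes that follow were lower in SH3, with no overlap, and come from the rule for named genes. RGS4, a regulator of G protein signalling, was at 8.38, 6.26 and 8.25 FPKM in the controls and 2.61, 2.46 and 2.38 in SH3 (-1.69 ± 0.27, adjusted p = 0.0521). SERINC2 was at 5.65, 7.09 and 6.9 and then 1.59, 2.07 and 1.99 FPKM (-1.90 ± 0.34, adjusted p = 0.0804). KTN1, the kinectin gene, was at 13.3, 11.9 and 19.4 and then 4.65, 3.09 and 6.06 FPKM (-1.74 ± 0.32, adjusted p = 0.0899). UBE3B, a ubiquitin ligase gene, was at 2.08, 3.97 and 1.69 and then 0.81, 1 and 1.54 FPKM, with counts of 154, 327 and 175 and then 40, 35 and 39 (-2.64 ± 0.48, adjusted p = 0.0862). The levels of UBE3B differed by less than its counts, and with curated transcripts only its log2 fold change was 0.23, so its direction depends on which transcripts are summed.

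How much of a gene the table lists bears on what a sum means. Of the 26 called genes, 10 had all of their curated RefSeq transcripts listed, and 471 of the 6398 tested genes did. Calls were made in 2.12% of those 471 and in 0.27% of the other 5927. Those 10 were 7 with higher and 3 with lower expression. They are ADAMTS1, ATP9A, CPA4, CXCL1, EGR1, EREG, FST, HES1, HMOX1 and KCNK3. Of genes named here without a call in the main test, TOP2A, INCENP, UBTF, ACSS2, MVK and IPO8 had 0 curated transcripts listed. Their levels are those of the listed transcripts and not of the whole gene. Calls also moved with the level. None were made among 1667 genes with a mean of 0.3 to 1 FPKM, and 16 among the 385 genes at 10 FPKM or more (4.16%). A change of at least 1 on the log2 scale, in contrast, was seen in 34.6% of the former and 10.9% of the latter.

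The study asks about PI3K, AKT and mTOR signalling, which links growth factors to ribosome supply. Of 31 tested core members of 51, 0 were called by edgeR, 4 had an unadjusted p under 0.05 (3 higher, 1 lower) and 1 was called by DESeq2. The median was 0.04, with 16 positive and 15 negative. TSC1, an inhibitor of mTOR, was at 3.52, 1.89 and 4.54 FPKM in the controls and 0.63, 1.01 and 1.34 in SH3 (-1.81 ± 0.52, adjusted p = 0.333 with edgeR and 0.0334 with DESeq2). Only 1 of the 43 curated RefSeq transcripts of TSC1 is listed, so the level of the whole gene was not measured. The transcription factor gene FOXO4 was at 1.51, 1.9 and 1.89 and then 2.97, 2.97 and 2.95 FPKM (0.66 ± 0.26, adjusted p = 0.548). PIK3C2B, a class II kinase of the family, was at 1.06, 1.04 and 0.89 and then 1.45, 1.71 and 1.68 FPKM (0.61 ± 0.24, adjusted p = 0.557). PIK3CD, a catalytic subunit, overlapped between the groups (0.84 ± 0.41, adjusted p = 0.649). Some core members were barely seen. AKT1 was at 0, 0 and 1.36 FPKM in the controls and 0, 0.29 and 0.99 in SH3. PIK3CA was at 0.63, 0 and 0 and then 0, 0.62 and 0.62 FPKM. The absence of calls thus does not show that the expression of these genes was unchanged.

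The wider KEGG pathways, as annotated in the deposited table and chosen after the values were seen, held some of the calls. In PI3K-Akt signalling 137 genes were tested and 4 rose (2.92%, beside 0.297%), CSF3, EREG, MET and CDKN1A. CSF3 and EREG are ligands, MET is a receptor and CDKN1A is a cell cycle target. The median of the pathway was 0.13. In mTOR signalling 74 were tested, and GRB10 was the 1 called (1.35%), with a median of 0.02.

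In the machinery that TAF1D belongs to, 10 of 21 members of SL1 and RNA polymerase I were tested. None were called by edgeR or by DESeq2, and 0 had an unadjusted p under 0.05. The median was -0.10. UBTF, the upstream binding factor of ribosomal RNA genes, was at 4, 0.95 and 7.68 FPKM in the controls and 1.46, 3.06 and 2.57 in SH3 (-0.81 ± 0.55, adjusted p = 0.83), with the controls spread wider than the difference. Of 23 tested ribosome assembly factors, 0 were called by edgeR (1 higher and 3 lower at an unadjusted p under 0.05, 1 higher and 2 lower by DESeq2), 6 were positive and 17 negative, and the median was -0.48, or -0.34 without control 1. NOP16, a nucleolar assembly factor, was at 7.85, 11.2 and 12.1 and then 4.81, 2.91 and 2.19 FPKM (-1.75 ± 0.50, adjusted p = 0.312). NVL, an ATPase of the same process, was at 2.89, 3.75 and 2.74 and then 9.95, 5.84 and 6.34 FPKM (1.14 ± 0.29, adjusted p = 0.225).

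In 21 tested genes of sterol and lipid synthesis, 0 were called by edgeR or by DESeq2, with 2 higher and 0 lower at an unadjusted p under 0.05. The median was -0.64, with 6 positive and 15 negative. The 2 higher went against the median: ACSS2, an acetyl-CoA synthetase gene, was at 6.47, 3.34 and 2.08 and then 7.65, 7.95 and 7.61 FPKM (0.91 ± 0.38, adjusted p = 0.579), and MVK, the mevalonate kinase gene, was listed at 0 in the controls and at 0.32, 1.08 and 0 FPKM in SH3 (adjusted p = 0.585). In 27 HIF targets and genes of glycolysis 0 were called by edgeR (3 at an unadjusted p under 0.05, 2 by DESeq2), 19 were positive, and the median was 0.29. NDRG1, a gene induced by low oxygen, was at 2.08, 0.18 and 0.46 FPKM in the controls and 17.9, 13.9 and 12 in SH3 (3.94 ± 1.00, adjusted p = 0.238).

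**Figure D4:**
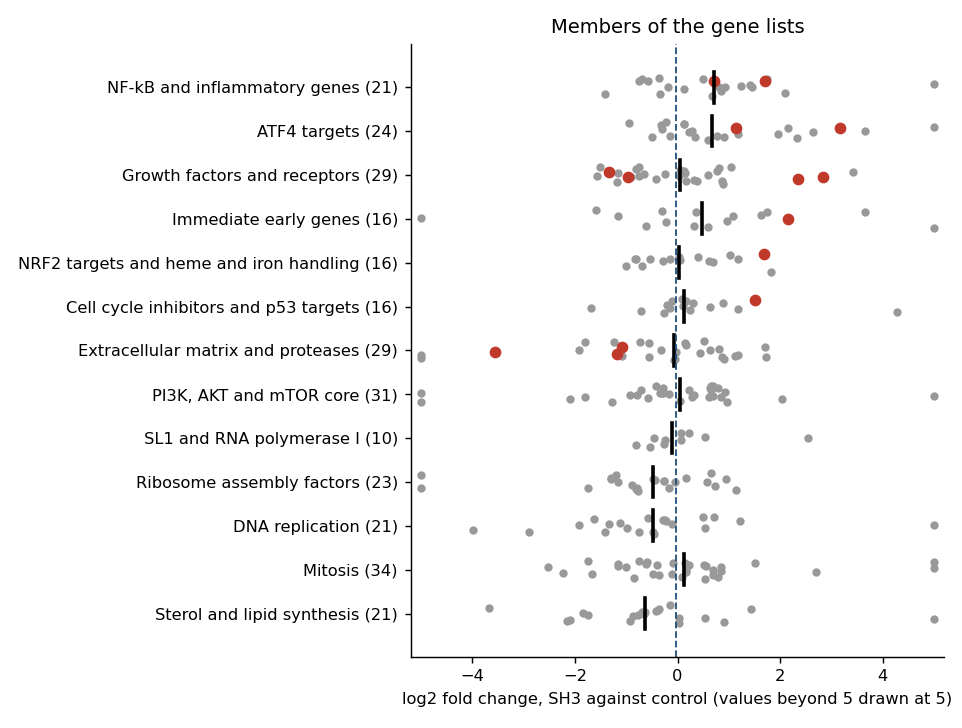
Each point is the log2 fold change of SH3 against control of 1 tested member of a list (the number tested in brackets), and red points passed an adjusted p of 0.05. Black bars mark the medians and the dashed line the median of all genes tested, -0.03. The medians of the NF-kB and ATF4 lists lie at 0.72 and 0.68, and those of ribosome assembly, DNA replication and sterol synthesis at -0.48, -0.48 and -0.64.

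The labelled line was checked on markers. Of 24 renal tubule markers 4 were tested and of 18 clear cell carcinoma markers 5, so the table covers few of them. PAX8, the lineage factor of the renal tubule, was at 2.26, 3.08 and 1.44 FPKM in the controls and 2.88, 9.97 and 3.05 in SH3. CDH6, a cadherin of the proximal tubule, was at 1.08, 0.78 and 0.89 and then 0.09, 0.11 and 0.11 FPKM (-2.94 ± 0.47, adjusted p = 0.0521). SCARB1, a lipoprotein receptor high in this carcinoma, was at 10.8, 12.6 and 13.9 and then 7.87, 7.92 and 7.84 FPKM (-0.75 ± 0.18, adjusted p = 0.212). Of 12 tested epithelial markers 0 were called by edgeR or by DESeq2 (1 at an unadjusted p under 0.05), and keratin 19 (KRT19) was at 70.1, 89.5 and 82.5 and then 60.3, 66.6 and 60.5 FPKM (-0.46 ± 0.19, adjusted p = 0.557). Of endothelial, fibroblast and blood cell markers 1 (TIE1), 2 (ACTA2 and PDGFRB) and 1 (CD68) were tested. Their summed levels in the controls were 0.16 to 0.29, 1.05 to 4.3 and 7.84 to 12.5 FPKM. In SH3 they were 0.2 to 0.34, 0.3 to 2.18 and 12.7 to 14.1 FPKM. CD68 alone cannot show whether blood cells were present. The part of these markers in the results was not tested.

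All 26 genes kept their direction without control 1, and 13 kept their call: ADAMTS1, ASNS, CPA4, CSF3, EGR1, EREG, GDA, HCFC1, HMOX1, MPRIP, PSPH, SEL1L3 and VCAN. The other two genes past the threshold without it were ELP3 and IPO8. ELP3, a subunit of the Elongator complex, was at 2.74, 1.09 and 1.31 FPKM in the controls and 5.42, 6.73 and 5.14 in SH3, with adjusted p = 0.118 with all controls and 0.0375 without control 1. IPO8, a nuclear import receptor gene, was at 3.58 FPKM in control 1 and listed at 0 in controls 2 and 3, and at 2.41, 7.23 and 3.25 in SH3, so its call rests on leaving out the 1 control in which it was seen (adjusted p = 0.991 with all controls). The count also moved with other libraries. It was 19 without control 2, 12 without control 3, 11, 13 and 14 without SH3 1, 2 and 3, and 19, 11 and 25 without SH1 1, 2 and 3, which are in the fit but not in this contrast. Without both control 1 and SH1 1 it was 7 (0.11%). ASNS, CPA4, CSF3, EREG and GDA passed in every alternative that gave a value for the sum.

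**Figure D5:**
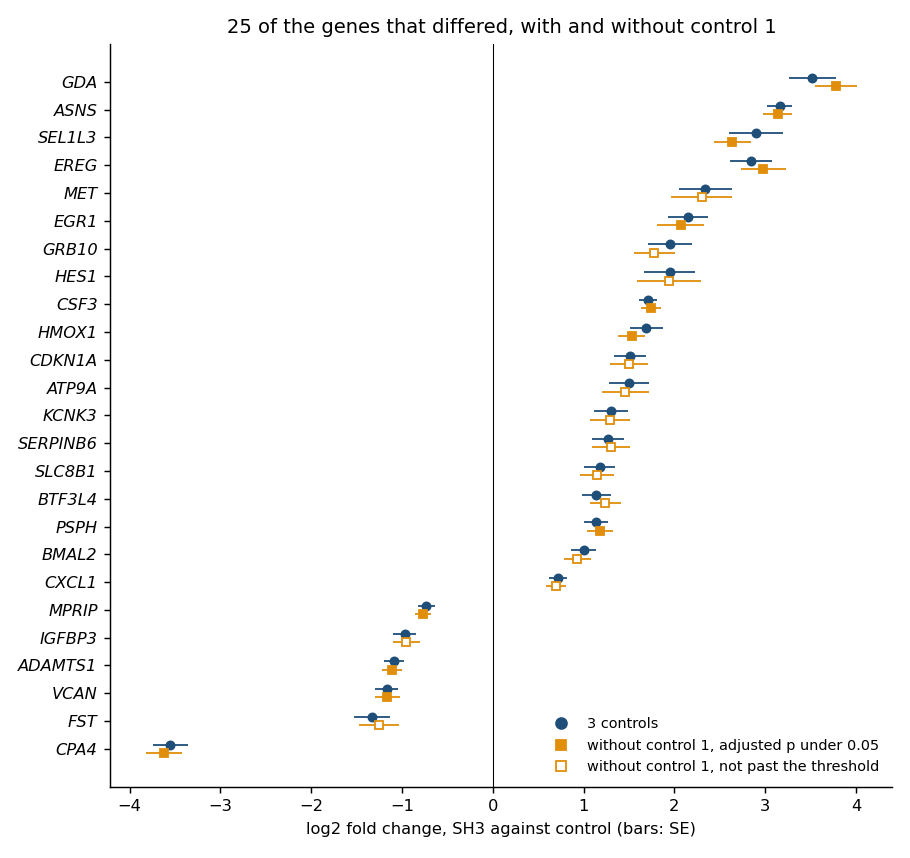
Log2 fold changes of SH3 against control with SE bars for 25 of the 26 genes (HCFC1, at 0 in SH3, is left out), with 3 controls (circles) and without control 1 (squares, filled where the adjusted p is under 0.05). The pairs lie close together in every gene, and ASNS moves from 3.16 to 3.14 and CPA4 from -3.55 to -3.62.

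Transcripts within a gene could move in opposite directions. SYNCRIP, an RNA-binding protein gene, had a sum of 12.1, 6.68 and 9.25 FPKM in the controls and 6.89, 7.63 and 6.11 in SH3 (-0.55 ± 0.18, adjusted p = 0.411). Its predicted transcript XM_017010176 was at 10.6, 6.68 and 9.25 FPKM in the controls and 0.04, 0 and 0.04 in SH3. This fall missed the threshold in a test of single transcripts (-8.4 ± 1.13, adjusted p = 0.0679). The predicted transcript XM_017010177 was listed at 0 in all controls and at 6.48, 6.01 and 5.95 FPKM in SH3 (adjusted p = 0.00654 in the same test). In SH1 both were seen, XM_017010176 at 3.46, 3.08 and 5.55 FPKM and XM_017010177 at 4.82, 5.67 and 2.43. The tested counts of the sum were 1414, 865 and 1156 in the controls and 853, 855 and 786 in SH3. On these counts SH3 lay below every control, whereas on FPKM SH3 2 (7.63) lay above control 2 (6.68). The adjusted threshold was missed (unadjusted p = 0.0136 with edgeR).

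WSB1, a ubiquitin ligase adaptor gene, had a predicted transcript (XM_017024436) listed at 0 in the controls and at 6.63, 3.36 and 4.27 FPKM in SH3 (adjusted p = 0.0496). The sum of its listed transcripts did not pass (0.75 ± 0.42, adjusted p = 0.706). Over the table, 5 of 17495 single transcripts passed in SH3 against control (0.0286%), 5 higher and 0 lower. Of 3743 genes with at least 2 tested transcripts, 61 (1.63%) had 1 higher and another lower at an unadjusted p under 0.05, and in 15 of these 61 (24.6%, beside 8.39% of all genes) the sum had an unadjusted p under 0.05 too. How reads were shared among similar transcripts is not given in the sources used here, and its part in these exchanges was not tested.

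SH3 and SH1 carry the same knockdown label, and the difference between them was tested in the same fit. Of 6398 genes, 87 passed (1.36%), 50 higher (0.781%) and 37 lower (0.578%) in SH3. Of the 26 genes called against control, 5 also differed between SH3 and SH1, ASNS, PSPH, ADAMTS1, IGFBP3 and HCFC1; both comparisons use the SH3 libraries, and nothing is read from that share. ADAMTS1 was at 9.43, 9.13 and 8.94 FPKM in SH1, below SH3, which was below control (SH3 minus SH1 1.33 ± 0.11, adjusted p = 0.00115). IGFBP3 was at 2.55, 2.33 and 2.81 FPKM in SH1, likewise below SH3 (2.64 ± 0.14, adjusted p = 0.000185). On the listed transcripts the fall of both was thus smaller in SH3. Both genes have 1 listed transcript, and the table was selected on control 1 and SH1 1. A 2-fold change in SH1 1 was thus close to a condition of being listed, which SH3 did not have to meet. Genes that changed less in SH1 1 could be missing, here and below.

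For the remaining 21 genes the difference missed the threshold, which does not show that the groups act alike. CSF3 was at 237, 243 and 268 FPKM in SH1 (SH3 minus SH1 0.19 ± 0.10, adjusted p = 0.568), and EGR1 at 92.8, 81.1 and 128 (0.21 ± 0.21, adjusted p = 0.95). GDA was at 14, 11.7 and 10.8 FPKM in SH1, above SH3 (-1.21 ± 0.24, adjusted p = 0.0589). HMOX1 was at 43, 51.4 and 53.3, below SH3 (0.92 ± 0.18, adjusted p = 0.0583). MET was at 2.53, 1.66 and 1.4, below SH3 (1.43 ± 0.28, adjusted p = 0.0592). In GDA, HMOX1 and MET the libraries of SH1 and SH3 did not overlap.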

How the data were processed

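Total RNA of 9 Caki-1 libraries was sequenced (3 control, 3 SH1, 3 SH3), and each library was grouped by its own label. Per the file headers the deposited table gives FPKM, TPM, a read count and a normalized read count for each library and transcript, and no tool is given in the sources used here. The submitters' processing notes name a mouse build, whereas the transcripts carry human RefSeq names, so values were read as human (20900 of 20909 found in RefSeq, GRCh38.p14). The deposited read count is an estimated count (65.11% of the values not whole). The deposited signal called normalized read count was used for its scaling alone, since rounding the estimated count up and dividing by 1 number for each library gives it back (100% of values, tolerance 1e-06). The deposited FPKM gave levels, and the deposited TPM the share of a library that is listed.

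Estimated counts were summed per gene and rounded. Sums were tested with the edgeR 4.0.16 quasi-likelihood test (R 4.3.3, TMM, filterByExpr with a minimum count of 10, robust) with the 9 libraries fitted together and 1 mean for each group, and adjusted by Benjamini-Hochberg over 6398 genes, threshold 0.05. SE is the log2 fold change over the square root of F. The mean count of called genes was at least 100 in 25 of the 26. The script was tested on simulated data. Alternatives were DESeq2 1.42.0, limma 3.58.1 on log2 of FPKM plus 1, other scalings, filters and sums, and left-out libraries. Members, 24 gene lists (968 entries) and the rule for named genes were chosen with earlier results of these data known. The rule took called genes (up to 15 each way), the 12 of smallest p each way with at least 1 FPKM and no overlap, genes called without control 1, up to 4 members of smallest p per list, and 14 genes of prior interest. ATP9A, HES1, KCNK3 and SLC8B1 were called beyond the 15 and were named after their values were seen. The lists get no set test. The labels give no batch.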

Additional observations from a re-analysis of the deposited data

Results flagged for a closer look

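Of the 87 genes that passed the edgeR test of the difference between SH3 and SH1, 5 were also among the 26 called against control. Only these 5 are given here, and each gap is SH3 minus SH1 on the log2 scale. SH1 1 is a library on which the table was selected, which limits what these tests show. ASNS had a gap of 4.42 (adjusted p = 1.16e-05), with 3.16 in SH3 and -1.26 in SH1. IGFBP3 had one of 2.64 (adjusted p = 0.000185), with -0.97 in SH3 and -3.60 in SH1. PSPH had one of 1.66 (adjusted p = 0.00118), with 1.14 and -0.52. ADAMTS1 had one of 1.33 (adjusted p = 0.00115), with -1.09 and -2.42. For the listed transcripts of HCFC1 the fitted gap was -10.74 (adjusted p = 0.00285), a value that depends on the prior count since SH3 is at 0. In all 5 the libraries of SH3 and SH1 did not overlap, as the levels given above show.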

How the results depend on the processing

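The 26 genes kept their direction in every alternative that gave a value for them, and 5 (ASNS, CPA4, CSF3, EREG, GDA) also kept their call in each. Of these values, 393 stayed past the threshold and 178 did not. The count of 26 became 257 with DESeq2 (132 higher, 125 lower), 56 with limma, 8 with only the groups compared (7 higher, 1 lower), 5 for single transcripts, 7 without control 1 and SH1 1, and 11 to 25 when 1 library was left out. The 87 genes that differed between SH3 and SH1 became 402 with DESeq2, 54 with only the groups compared, 56 without that pair, and 32 to 92 with 1 library left out. With the replicate number as a block the counts were 12 and 39. Same-numbered SH3 and control libraries correlated at 0.021, -0.007 and 0.02 in their deviations from the group means. SH3 2 and 3 each correlated better with a control of another number. Values this near 0 cannot decide whether same-numbered libraries share a culture or run, and the labels do not say. With curated transcripts only, SYNCRIP changed sign (0.45) and so did UBE3B (0.23). Adjusted over the 471 genes with every curated transcript listed, 18 were called (11 higher, 7 lower), an alternative chosen after seeing the data. Other scalings moved the median log2 fold change of all genes by 0.064 at most. The cause of these shifts was not tested. A change of at least 1 on the log2 scale was seen in 49.4% of genes under 0.3 FPKM, where 1 call was made.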
